A study of Mus musculus with 32 samples.

Results

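The joining (J) gene segments of the T-cell receptor were examined in donor T cells of a mouse graft-versus-host disease experiment. The members were all non-blank J names in the deposited alpha-chain (TRA) and beta-chain (TRB) clonotype tables except TRAJ18 and TRAJ33, which left 61 of 63 names. Of these, 47 were TRAJ segments of the TRA table, 13 were TRBJ segments of the TRB table, and TRAJ1 occurred with 1 entry in the TRB table only. For each library the share of a segment was computed in 2 ways, as its share of clonotypes, each counted once, and as its share of sequencing reads. A clonotype is here 1 combination of V segment, J segment and CDR3 amino-acid sequence within 1 library.

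Donor T cells of C57Bl6 mice were sorted from spleen and lymph nodes as CD4 conventional cells, CD8 conventional cells and regulatory T cells (Treg). The day 0 groups were taken before transplantation, and the other groups were recovered from recipients in a major mismatch model with Balb/c hosts or from syngeneic controls. The titles of the transplanted samples say day 6 and the design text says day 8. CD4 and CD8 cells each had 2 libraries at day 0, 3 from untreated syngeneic recipients, 4 from untreated allogeneic recipients with graft-versus-host disease, and 4 from allogeneic hosts given Treg as well, on day 0 (Treg-treated). Treg had 2 libraries at day 0 and 3 from Treg-treated recipients, which makes 31 libraries in 10 groups. Libraries are named by the prefix JL019 or JL027 of their titles and a number where a group had more than 1 of that prefix. The labels do not say that libraries of a group came from separate animals, so p-values measure only the spread between these samples.

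A T-cell receptor chain is assembled in the thymus by joining a V segment to a J segment, with a D segment between them in the beta chain. The CDR3 is the loop at this joint and contacts the peptide held by the MHC molecule, so the J segment sets the end of that loop and part of its length. CD4 cells are selected on MHC class II and CD8 cells on MHC class I, while Treg are a CD4 lineage that restrains other T cells. The Trbj segments lie in 2 clusters, each after its own D segment and before its own constant gene: Trbj1 before Trbc1 and Trbj2 before Trbc2. The Traj segments form 1 long array before Trac, and a developing cell can replace a first joint by joining a more upstream V segment to a Traj segment nearer to Trac, so low-numbered Traj segments are reached by later rearrangements.

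By RefSeq's GRCm38.p6 annotation the Trbj segments lie on chromosome 6 between 41533864 and 41543856. The Traj segments lie on chromosome 14 from TRAJ58, which starts at 54157280, to TRAJ1, which ends at 54218842, so that numbers fall toward Trac. Each member is a germline J gene segment, and 60 of 61 were found in that annotation, the exception being TRAJ10. RefSeq marks TRAJ1, TRAJ8, TRAJ54 and TRBJ2-6 as pseudogenes. The segments are short genes, from 47 to 53 bases for TRBJ and from 29 to 66 bases for TRAJ, the shortest being TRAJ1.

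The TRA table held 122907 clonotype entries with 1064 to 8363 clonotypes and 6870 to 39867 reads per library. The TRB table held 211323 entries with 2137 to 15543 clonotypes and 8041 to 132336 reads per library. Clonotypes seen in 1 read made up 56.1% of TRA and 70.2% of TRB entries, and reads carry no molecular identifiers, so read numbers are not numbers of molecules. In bulk libraries, fewer cells with a segment and less receptor RNA per cell cannot be told apart. In the RNA values of the same cells, Treg marker genes summed to 27689 to 39355 in the Treg libraries and to at most 6820 in the CD4 libraries, although Foxp3 alone was lower in Treg at day 0 (mean 320) than in CD4 at day 0 (mean 1061). The CD4 syngeneic library JL019-2 stood apart, with Cd8a at 1956 beside Cd4 at 1659. Its sum of the 3 myeloid genes Lyz2, Csf1r and Itgam was 830706, against 609 to 22839 in the other samples. The part of these cells in the results was not tested beyond leaving this library out. Its TRBJ2 share of clonotypes, 67.2%, lay within the range of the other CD4 libraries, and its TRBJ2-1 share, 11.4%, was the highest of them. Without it, the number of members called between CD8 and CD4 cells by clonotypes was 26 of 53, as with it.

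Most TRB clonotypes used few J segments. TRBJ2-7 had the highest mean share over the 31 libraries, 20.3% of TRB clonotypes, ahead of TRBJ2-5 at 12.5%, TRBJ2-1 at 12% and TRBJ1-1 at 10.9%. TRBJ2-4 followed at 9.69% and TRBJ2-3 at 8.54%, and these were members of the second cluster. The other segments had smaller means: TRBJ1-4 6.09%, TRBJ2-2 5.58%, TRBJ1-3 5.42%, TRBJ1-2 5.10%, TRBJ1-5 2.30% and TRBJ1-6 1.52%. The pseudogene TRBJ2-6 appeared in 1 entry of all libraries. The 3 leading segments together held 44.8% and the first 5 held 65.4% of TRB clonotypes.

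**Figure D1:**
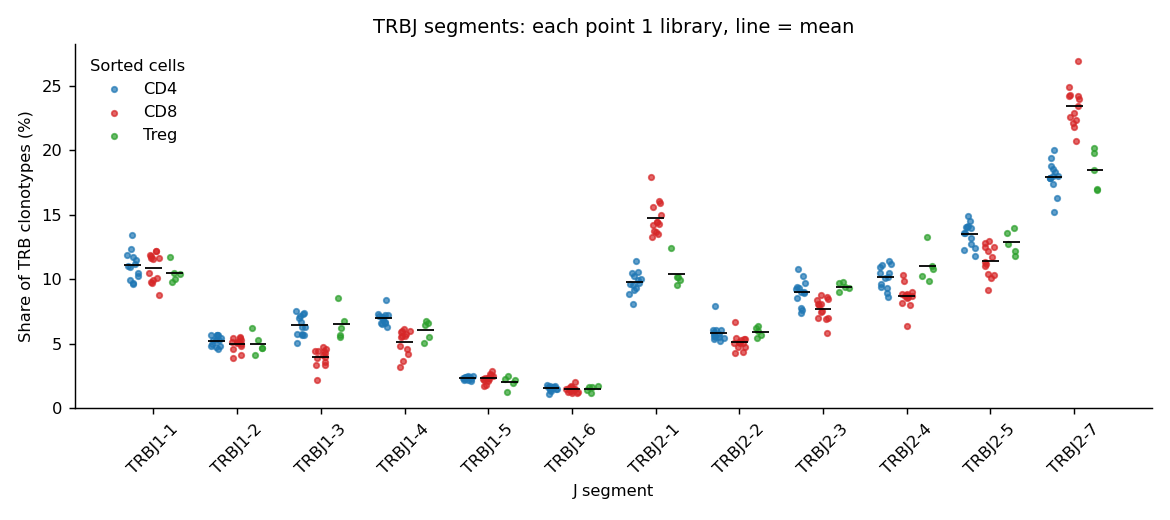
Share of TRB clonotypes (percent) for each TRBJ segment; points are libraries (CD4 n = 13, CD8 n = 13, Treg n = 5) and lines are means. TRBJ2-1 and TRBJ2-7 sit higher, and TRBJ1-3 and TRBJ1-4 lower, in every CD8 library than in every CD4 library.

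TRA clonotypes were spread over many more segments. TRAJ31 had the highest mean share, 5.42% of TRA clonotypes with a range of 1.97% to 10.5% over libraries, followed by TRAJ22 at 5.25% (3.44% to 8.29%) and TRAJ23 at 5.18% (3.44% to 10.7%). TRAJ26, TRAJ27, TRAJ21, TRAJ15 and TRAJ30 had means of 3.86%, 3.73%, 3.73%, 3.64% and 3.53%. The ranges of these 8 segments overlapped, and together they held 34.4% of TRA clonotypes. Of 47 TRAJ members, 35 had a mean share of at least 1%. At the other end, TRAJ3, TRAJ8, TRAJ10, TRAJ20, TRAJ29 and TRAJ54 had at most 8 entries each over all libraries. The lowest means were those of TRAJ20 (0.000745%), TRAJ3 (0.00163%) and the pseudogene TRAJ8.

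Differences in clonotype and read counts per segment were tested with edgeR's quasi-likelihood test in 1 model over all libraries, relative to each library's total for that chain. Segments needed a mean of at least 5 counts per library, which 53 of the 61 members passed, 41 TRAJ and 12 TRBJ. P-values were adjusted by Benjamini-Hochberg over 55 segments, the members and the 2 segments that are no members, and a segment is called below at an adjusted p under 0.05. Each comparison below gives the share of all 55 tested segments that was called, since almost all tested segments are members.

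More members were called between CD8 and CD4 cells than in any of the other 7 comparisons. Those had fewer libraries, so the numbers of calls do not show where more segments differ. By clonotypes, 26 of 53 tested members were called, 47.3% of all tested segments, with 9 higher and 17 lower in CD8 cells (16.4% and 30.9%). With TMM scaling the split was 11 higher and 12 lower, and with DESeq2 it was 14 and 13, so the balance of directions depends on the scaling. By reads, 9 members were called, 16.4% of all tested, 5 higher and 4 lower, and 21 were called with the 10 largest clonotypes of each library left out. The comparison averages the differences within the 4 arms, with 13 libraries of each cell type.

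Among beta-chain segments, TRBJ2-1 and TRBJ2-7 were higher in CD8 cells. TRBJ2-1, the first segment of the second cluster (chromosome 6, 41542754 to 41542803), held 13.3% to 17.9% of TRB clonotypes in CD8 libraries (median 14.4%) and 8.11% to 11.4% in CD4 libraries (median 9.75%). The cell types did not overlap, and in 13 of 13 CD8 and CD4 pairs of the same arm and number the CD8 library was higher. Such pairs are only counted here, as a description, since the labels do not say whether the numbers mark related libraries. The log2 fold change of TRBJ2-1 was 0.56 (SE 0.042, edgeR adjusted p 5.25e-29), and by reads 0.63 (SE 0.111, edgeR adjusted p 2.4e-06). TRBJ2-7, the last segment of the second cluster (41543810 to 41543856), held 20.7% to 26.9% in CD8 libraries (median 23.4%) and 15.2% to 20% in CD4 libraries (median 18.0%). Again no CD8 library fell within the CD4 range, and the log2 fold change was 0.37 (SE 0.031, edgeR adjusted p 6.86e-25). By reads TRBJ2-7 ranged from 18.9% to 28.8% in CD8 libraries and from 13.9% to 21.2% in CD4 libraries, which overlap, with a log2 fold change of 0.38 (SE 0.082, edgeR adjusted p 0.000173).

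Both differences were present before transplantation. At day 0 TRBJ2-1 held 13.3% and 13.6% of CD8 clonotypes and 9.99% and 10.5% of CD4 clonotypes, and TRBJ2-7 held 22.6% and 21.8% against 18.3% and 17.8%.

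The remaining called beta-chain segments were lower in CD8 cells. TRBJ1-3, of the first cluster (41534323 to 41534372), held 2.19% to 4.76% in CD8 libraries (median 4.14%) and 5.10% to 7.56% in CD4 libraries (median 6.30%). The 2 ranges were apart, and the log2 fold change was -0.65 (SE 0.063, edgeR adjusted p 1.25e-19). By reads TRBJ1-3 was higher in the CD8 library in 1 of 13 pairs (log2 fold change -0.71, SE 0.171, edgeR adjusted p 0.000798). TRBJ1-4 (41534811 to 41534861) held 3.24% to 6.17% (median 5.59%) in CD8 against 6.28% to 8.37% (median 7.08%) in CD4 libraries, without overlap, at a log2 fold change of -0.43 (SE 0.060, edgeR adjusted p 7.72e-11). TRBJ2-5 (log2 fold change -0.24, SE 0.041), TRBJ2-4 (-0.21), TRBJ2-3 (-0.21) and TRBJ2-2 (-0.15) overlapped between the cell types, and in each of them the CD8 library was higher in 1 of 13 pairs. Their edgeR adjusted p-values were 8.05e-08, 8.78e-05, 0.000191 and 0.0308. Shares within a chain have a fixed total, so the higher shares of TRBJ2-1 and TRBJ2-7 in CD8 cells lower the others. The fold changes given here do not separate such a fall from any other. TRBJ1-1, TRBJ1-2, TRBJ1-5 and TRBJ1-6 were not called, with the CD8 library higher in 6, 3, 7 and 5 of 13 pairs. The prior degrees of freedom that edgeR estimated for the TRB segments were infinite for clonotypes and for reads, so that 12 segments share 1 estimate of the spread in each measure. With limma on log2 shares in its place, 27 members were called, 9 higher and 18 lower.

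**Figure D2:**
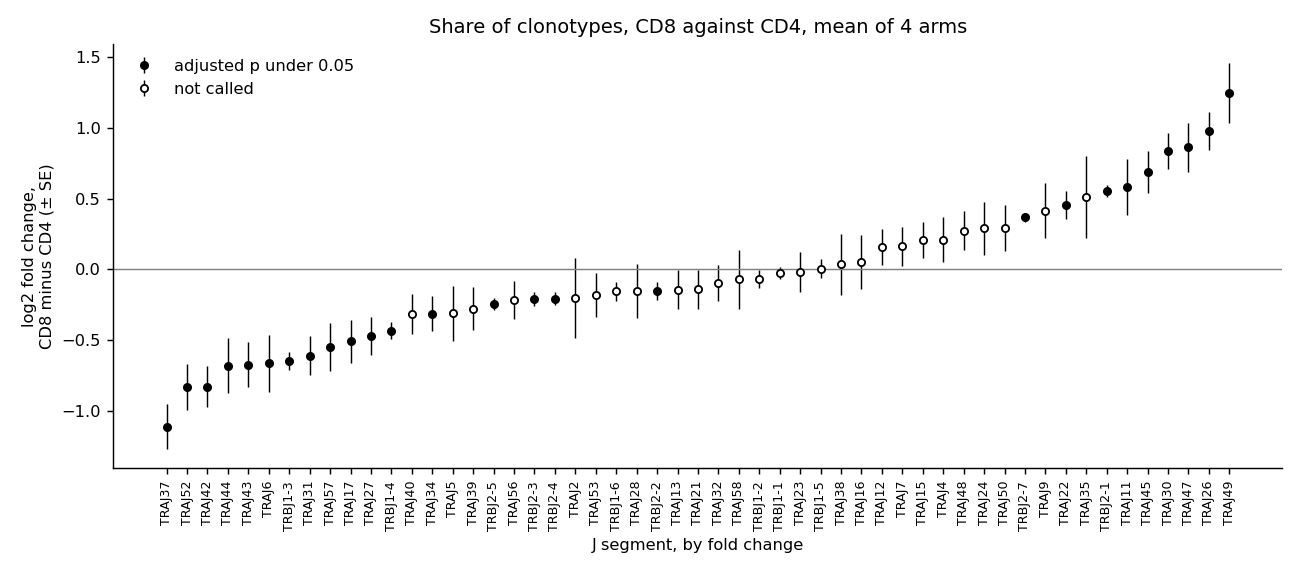
Log2 fold change of clonotype share, CD8 minus CD4 cells, for each tested segment in order of size; bars are the standard error and filled points have an edgeR adjusted p under 0.05. TRAJ49 (1.24) and TRAJ26 (0.98) are among the highest and TRAJ37 (-1.11) is among the lowest.

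Alpha-chain differences were larger in fold and more variable. TRAJ26 (chromosome 14, 54194490 to 54194549) held 2.97% to 8.19% of TRA clonotypes in CD8 libraries (median 5.01%) and 2.07% to 3.27% in CD4 libraries (median 2.70%). The CD8 library was higher in 12 of 13 pairs, and the log2 fold change was 0.98 (SE 0.136, edgeR adjusted p 1.73e-07). TRAJ30 (54189866 to 54189924) held 3.26% to 7.33% (median 4.64%) against 1.97% to 3.63% (median 2.48%), was higher in 13 of 13 pairs, and had a log2 fold change of 0.83 (SE 0.127, edgeR adjusted p 8.46e-07). Both ranges overlapped at their edges, and both segments lay apart between the cell types at day 0, TRAJ26 at 4.45% and 4.90% in CD8 against 2.70% and 2.64% in CD4, and TRAJ30 at 4.41% and 4.75% against 2.48% and 2.92%. By reads the log2 fold changes were 0.98 for TRAJ26 and 0.93 for TRAJ30 (edgeR adjusted p 0.00797 for each).

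TRAJ37 (54181518 to 54181577) went the other way, with 0.594% to 3.03% in CD8 libraries (median 1.68%) and 3.25% to 4.63% in CD4 libraries (median 3.61%). No library overlapped, and the log2 fold change was -1.11 (SE 0.157, edgeR adjusted p 2.34e-07), with the same value by reads (-1.11, SE 0.353, edgeR adjusted p 0.0192). TRAJ42 ranged from 0.804% to 2.23% in CD8 libraries and from 1.95% to 3.53% in CD4 libraries, with a log2 fold change of -0.83 by clonotypes (SE 0.142, edgeR adjusted p 7.03e-06) and -1.26 by reads (SE 0.289, edgeR adjusted p 0.000939). TRAJ52 ranged from 0.188% to 2.17% against 1.84% to 3.35%, with a log2 fold change of -0.83 by clonotypes (SE 0.163, edgeR adjusted p 6.03e-05) and -1.39 by reads (SE 0.358, edgeR adjusted p 0.00336). By clonotypes each of TRAJ37, TRAJ42 and TRAJ52 was lower in the CD8 library of every one of the 13 pairs. By reads the CD8 library was higher in 2, 0 and 2 of 13 pairs.

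TRAJ49 (54168686 to 54168744) had the widest spread. It held 2.02% to 14.1% of TRA clonotypes in CD8 libraries (median 4.29%) and 1.31% to 3.47% in CD4 libraries (median 1.93%), with a log2 fold change of 1.24 (SE 0.209, edgeR adjusted p 4.93e-06). By reads it reached 29.8% in the Treg-treated CD8 library JL027-1, where 1 clonotype with TRAV19 held 19.7% of all TRA reads, and the log2 fold change was 1.69 (SE 0.379, edgeR adjusted p 0.00081). Before transplantation it held 4.29% and 3.77% of CD8 and 1.93% and 1.74% of CD4 clonotypes.

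Of the 8 TRAJ segments with the highest mean share, TRAJ22 was higher in CD8 cells (log2 fold change 0.46, SE 0.101, edgeR adjusted p 0.000231) and TRAJ31 was lower (-0.61, SE 0.138, edgeR adjusted p 0.00029). TRAJ27 was also lower (-0.47, edgeR adjusted p 0.00371), with the CD8 library higher in 1 of 13 pairs. TRAJ15, TRAJ21 and TRAJ23 were not called, with the CD8 library higher in 9, 4 and 4 of 13 pairs. The other called alpha-chain segments, listed after their values were seen so that all 26 are named, were TRAJ47, TRAJ45 and TRAJ11 on the higher side (log2 fold changes 0.86, 0.69 and 0.58) and TRAJ6, TRAJ17, TRAJ34, TRAJ43, TRAJ44 and TRAJ57 on the lower side (-0.66, -0.51, -0.31, -0.67, -0.68 and -0.55).

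The summed share of the TRBJ2 cluster also differed. It adds up segment shares tested above and is not a separate result. Within the cluster TRBJ2-1 and TRBJ2-7 were higher in CD8 cells, and TRBJ2-2, TRBJ2-3, TRBJ2-4 and TRBJ2-5 were lower. TRBJ2 segments held 70.8% and 71.0% of TRB clonotypes in CD8 cells at day 0, 70.5%, 70.8% and 70.9% in syngeneic, 71.2%, 69.4%, 70.2% and 71.3% in allogeneic and 72.8%, 72.9%, 72.7% and 70.7% in Treg-treated recipients. In CD4 cells the same share was 68.1% and 67.1%, then 66.8%, 67.2% and 68.5%, then 64.6%, 64.1%, 64.7% and 64.0%, then 65.5%, 66.8%, 67.4% and 66.7% in the same order of arms. Every CD8 library was above every CD4 library. The mean within-arm difference was 4.58 percentage points (exact two-sided permutation test within arms, p 3.40e-06, the smallest it can give, adjusted p 0.000102 over 30 tests of single values), and it was 4.75 in JL019 and 4.32 in JL027 libraries.

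**Figure D3:**
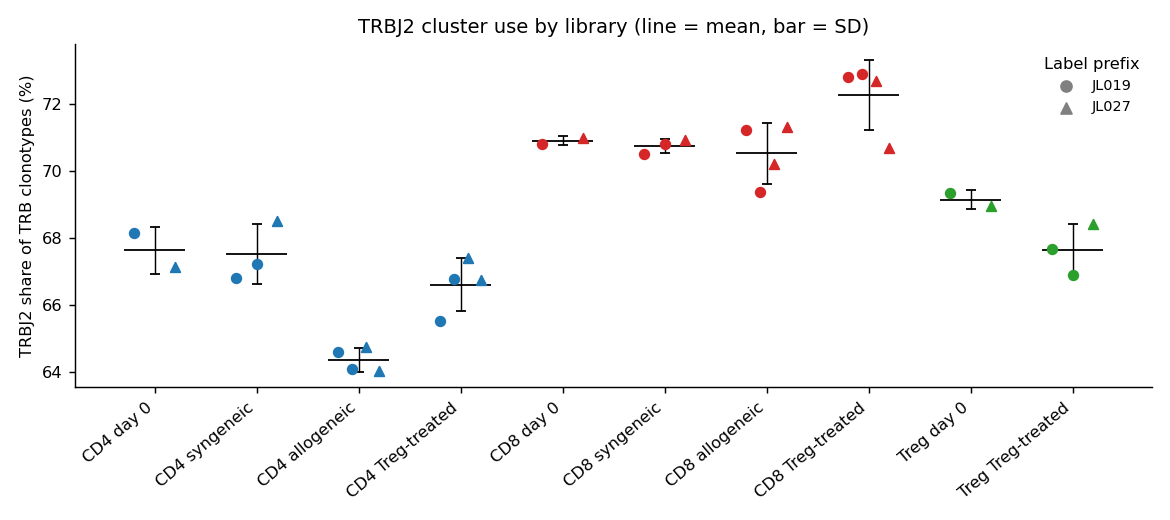
Share of TRB clonotypes with a TRBJ2 segment (percent) in each library by group; circles are JL019 and triangles JL027 libraries, the line is the mean and the bar the SD. All CD8 libraries lie above all CD4 libraries, and the 4 CD4 allogeneic libraries lie between 64.0% and 64.7%, below the other CD4 libraries.

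The difference between CD8 and CD4 cells was also looked at within V segments, over the 18 TRBV segments with at least 500 clonotypes in each of both cell types. TRBJ2-7 was higher in CD8 cells within 18 of them, by a median of 6.58 points (0.757 to 11.3). TRBJ2-1 was higher within 17 (median 4.73 points, -0.686 to 7.36), TRBJ2 as a whole within 16 (median 3.31 points, -5.89 with TRBV20 to 8.16 with TRBV4), and TRBJ1-3 within 3 (median -3.32 points). TRBV1 stood apart in both cell types: 98.0% of 1955 CD8 and 96.8% of 1817 CD4 clonotypes with TRBV1 used a TRBJ2 segment.

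Position along the Traj array gave a further difference. Segments with a number above 30, those farther from Trac (this count includes TRAJ33, and its complement TRAJ18), held 46.4% and 46.1% of CD8 clonotypes at day 0, 49.7%, 48.1% and 49.9% in syngeneic, 42.0%, 37.9%, 40.5% and 35.6% in allogeneic and 40.4%, 41.3%, 40.2% and 46.5% in Treg-treated recipients. In CD4 cells they held 46.4% and 46.6%, then 52.0%, 50.6% and 50.3%, then 48.1%, 52.1%, 51.6% and 50.7%, then 49.6%, 51.2%, 48.1% and 49.6%. At day 0 the cell types differed by less than 1 point. After transplantation the CD8 libraries lay below the CD4 ones of the same arm in syngeneic, allogeneic and Treg-treated recipients. The means were nearest in syngeneic recipients, 49.2% in CD8 and 51.0% in CD4 cells. Averaged over arms CD8 was 5.28 points lower (difference -5.28, exact two-sided permutation test within arms, p 6.80e-06, adjusted p 0.000102), lower in 12 of 13 pairs. Weighted by reads the difference was -4.64 points and the adjusted p from the same exact permutation test 0.0758.

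Within CD8 cells, the allogeneic libraries had 10.2 points less of this share than the syngeneic ones (difference -10.2, exact two-sided permutation p 0.0571, the smallest that 4 against 3 libraries can give, adjusted p 0.155). The groups did not overlap, and the difference was -8.92 in JL019 and -11.8 in JL027 libraries. Both upper stretches of the array had lower means in allogeneic cells: numbers 46 to 58 held 22.1% ± 0.927 (SD, n = 3) of syngeneic and 16.5% ± 3.82 (SD, n = 4) of allogeneic CD8 clonotypes, and numbers 31 to 45 held 27.2% ± 0.132 and 22.6% ± 2.43. Numbers 16 to 30 held 32.8% ± 0.175 and 38.1% ± 4.59, and numbers 2 to 15 held 18.0% ± 0.929 and 22.9% ± 2.82. The Treg-treated CD8 libraries were 3.08 points above the allogeneic ones (adjusted permutation p 0.395, exact test), and the groups overlapped. By reads, treated CD8 libraries held 45.5% ± 4.53 and untreated allogeneic ones 37.8% ± 7.37 (SD, n = 4 each), a wider difference that did not pass the exact permutation test either.

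In Treg, the comparison with CD4 cells covered day 0 and the Treg-treated arm. No segment was called by edgeR by clonotypes or by reads (0% of tested segments), where 7 and 2 members had an unadjusted p under 0.05. DESeq2 and limma on log2 shares also called 0. The lowest p by clonotypes was that of TRAJ7, at 1.2% and 1.74% in Treg against 2.10% and 1.93% in CD4 cells at day 0, and at 1.2%, 0.614% and 1.13% against 1.54%, 1.40%, 1.56% and 1.68% in Treg-treated recipients. Treg libraries lay below the CD4 libraries of the same arm in TRAJ7, at a log2 fold change of -0.55 (SE 0.216, edgeR adjusted p 0.379). By reads the lowest p was that of TRAJ56 (log2 fold change -1.12, SE 0.426, edgeR adjusted p 0.664).

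TRBJ2 segments held 69.3% and 69.0% of Treg clonotypes at day 0 and 67.7%, 66.9% and 68.4% in Treg-treated recipients. This was 1.28 points above CD4 cells (exact two-sided permutation p 0.0190, adjusted p 0.114), with overlap. The difference did not pass adjustment, and with clonotypes of at least 2 reads its direction turned (-0.293). Segments numbered above 30 held 45.5% and 45.6% of Treg clonotypes at day 0 and 40.5%, 44.2% and 45.1% in Treg-treated recipients, 3.60 points below CD4 cells (difference -3.60). The Treg and CD4 libraries of the same arm did not overlap, and the exact permutation p was 0.00952, the smallest this design can give (adjusted p 0.0714).

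Between allogeneic and syngeneic CD4 cells, 0 members were called by edgeR by clonotypes or by reads (0% of tested segments), 5 and 1 had an unadjusted p under 0.05, and DESeq2 and limma on log2 shares called 0 in both measures. Other settings did call members: 4 by clonotypes of at least 2 reads, 6 by clonotypes without near copies, and 1 by reads with only these groups in the model. TRBJ1-1, the first segment of the first cluster (41533864 to 41533911), held 11.0%, 10.3% and 9.97% in syngeneic and 13.4%, 11.5%, 12.3% and 11.8% in allogeneic CD4 libraries. TRBJ2-4, of the second cluster, held 9.41%, 8.95% and 9.34% in syngeneic and 10.5%, 11.4%, 10.5% and 11.2% in allogeneic CD4 libraries. TRBJ1-3 held 5.67%, 5.75% and 5.10% in syngeneic and 6.30%, 7.33%, 6.28% and 7.56% in allogeneic CD4 libraries. TRBJ1-1 had the lowest p by clonotypes, before TRBJ2-4 and TRBJ1-3. In all 3, each allogeneic library was above each syngeneic one, at log2 fold changes of 0.23 (SE 0.084), 0.24 (SE 0.090) and 0.31 (SE 0.117), with an edgeR adjusted p of 0.125 for each. TRBJ2-1, at -0.21, and TRBJ2-7, at -0.15, shared that adjusted p. By reads the lowest p was that of TRAJ50, at 1.31%, 1.49% and 7.23% in syngeneic and 2.37%, 0.745%, 1.67% and 0.494% in allogeneic CD4 libraries, so that 1 syngeneic library (JL027) held the high value (edgeR adjusted p 0.996).

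The cluster share of CD4 cells was compared as a single value. The TRBJ2 share was 67.5% ± 0.896 (SD, n = 3) in syngeneic and 64.4% ± 0.355 (SD, n = 4) in allogeneic CD4 libraries, a difference of -3.14 points without overlap (exact two-sided permutation p 0.0571, the smallest possible with 3 against 4 libraries, adjusted p 0.155). The difference was -2.66 in JL019 and -4.13 in JL027 libraries. In Treg-treated recipients it was 66.6% ± 0.784 (SD, n = 4), 2.24 points above the allogeneic libraries and again without overlap (exact permutation p 0.0286, the smallest possible with 4 against 4, adjusted p 0.122). These 2 comparisons share the allogeneic libraries. At day 0 the CD4 share was 67.6% ± 0.705 (SD, n = 2). In CD8 cells the same share was 70.8% ± 0.212 in syngeneic, 70.5% ± 0.920 in allogeneic and 72.3% ± 1.06 in Treg-treated recipients, with adjusted exact permutation p-values of 0.889 and 0.198 for the 2 steps.

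Between Treg-treated and untreated allogeneic recipients, CD4 cells had 0 called members by edgeR in both measures (0% of tested segments), with 2 members by clonotypes and 1 by reads at an unadjusted p under 0.05. DESeq2 and limma on log2 shares called 0 in both, and TMM scaling called 1 by clonotypes. TRBJ2-7 had the lowest p by clonotypes, at 17.4%, 15.2%, 17.9% and 16.3% in allogeneic and 19.4%, 18.0%, 18.6% and 18.8% in Treg-treated CD4 libraries. Each treated library was above each allogeneic one, at a log2 fold change of 0.16 (SE 0.056, edgeR adjusted p 0.238). TRBJ2-2 had the lowest p by reads, and its read share reached 14.9% in 1 treated library (JL027-2) against 4.87% to 7.27% in the other treated and 4.52% to 5.85% in the allogeneic ones (edgeR adjusted p 0.686). Against day 0, allogeneic CD4 cells also had 0 called members by edgeR (0% of tested segments; 3 by clonotypes and 0 by reads at an unadjusted p under 0.05; DESeq2 and limma on log2 shares called 0). By clonotypes, 1 member was called with only these groups in the model and 3 without near copies. There TRBJ1-1 had the lowest p by clonotypes (log2 fold change 0.28, SE 0.093, edgeR adjusted p 0.168), from 9.74% and 10.5% at day 0.

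CD8 cells changed J segment use in allogeneic recipients. Against syngeneic CD8 cells, 7 members were called by clonotypes, 12.7% of tested segments, 1 higher and 6 lower (1.82% and 10.9%), and 3 by reads, 5.45%, all lower. TRAJ56, near the upstream end of the array (54159263 to 54159325), held 3.09% and 3.18% of CD8 clonotypes at day 0, 3.23%, 3.12% and 2.79% in syngeneic and 1.15%, 1.44%, 1.51% and 1.03% in allogeneic recipients. All allogeneic libraries lay below all day 0 and syngeneic ones. The log2 fold change against syngeneic cells was -1.23 (SE 0.269, edgeR adjusted p 0.00296), and against day 0 cells -1.27 (SE 0.292, edgeR adjusted p 0.00504); these share the allogeneic libraries.

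By reads TRAJ56 fell further, from 5.38% and 5.47% at day 0 and 5.88%, 6.05% and 5.17% in syngeneic to 1.75%, 1.43%, 1.38% and 0.447% in allogeneic CD8 libraries. The log2 fold change was -2.19 (SE 0.513, edgeR adjusted p 0.00614) against syngeneic cells. With any 1 of the 7 libraries left out, TRAJ56 remained called by clonotypes, with edgeR adjusted p-values from 0.00354 to 0.0240. In CD4 libraries TRAJ56 held 2.06% to 4.31% of clonotypes, with no call between the arms. The difference between the CD8 and the CD4 change of TRAJ56 was -1.24 (SE 0.368, edgeR adjusted p 0.05), which did not pass the threshold, and no segment passed it (0 of 53 members by clonotypes or reads, 0%).

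The other segments that fell by clonotypes were TRAJ45, TRAJ58, TRAJ40, TRAJ48 and TRBJ1-4. TRAJ45 held 2.19%, 2.05% and 2.34% in syngeneic and 1.06%, 0.851%, 1.51% and 0.800% in allogeneic CD8 libraries, without overlap (log2 fold change -1.02, SE 0.273, edgeR adjusted p 0.0174). TRAJ40 held 2.50%, 3.41% and 2.67% against 1.41%, 1.83%, 1.32% and 1.66%, also without overlap (-0.89, SE 0.276, edgeR adjusted p 0.0312). TRAJ58, the outermost Traj segment measured, held 1.78%, 1.2% and 1.69% against 0.705%, 0.393%, 0.736% and 0.571% (-1.35, SE 0.428, edgeR adjusted p 0.0312). Its shares rest on 147, 98 and 102 syngeneic clonotypes and on 8, 6, 19 and 10 allogeneic ones. For these alpha-chain segments every allogeneic library was below every syngeneic one. TRAJ48 held 2.76%, 3.28% and 2.84% against 1.23%, 1.44%, 2.29% and 1.83% (-0.76, SE 0.260, edgeR adjusted p 0.0456), and by reads 3.37%, 4.28% and 3.66% against 0.335%, 0.504%, 1.37% and 1.13% (-2.16, SE 0.570, edgeR adjusted p 0.0128). TRAJ58 fell by reads as well (-2.91, SE 0.807, edgeR adjusted p 0.0152).

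TRBJ1-4 held 5.98%, 5.56% and 5.63% in syngeneic and 3.24%, 6.01%, 4.24% and 4.61% in allogeneic CD8 libraries (-0.35, SE 0.115, edgeR adjusted p 0.0312), and 1 allogeneic library (JL019-2) lay above the syngeneic ones. TRBJ1-1 was the called segment that rose, from 9.94%, 10.5% and 9.74% to 11.9%, 11.6%, 12.2% and 11.8% without overlap (0.24, SE 0.083, edgeR adjusted p 0.0312). In CD4 cells the same change of TRBJ1-1 was 0.23 and not called. Against day 0, TRBJ2-5 (41543453 to 41543501) was lower in allogeneic CD8 cells, at 11.0%, 11.2%, 9.17% and 10.1% after 12.8% and 13.0% (-0.33, SE 0.086, edgeR adjusted p 0.00504). With TRAJ56 and TRAJ45 (-1.05, SE 0.297, edgeR adjusted p 0.0213) it made 3 members called by clonotypes in that comparison, 5.45% of tested segments. TRAJ56 was the 1 called by reads, 1.82% (-2.12, SE 0.554, edgeR adjusted p 0.0238), where 0 were called without allogeneic JL027-2 and 2 without allogeneic JL027-1. The count by reads was also 0 with TMM, with DESeq2, with only these groups in the model and with the 10 largest clonotypes of each library left out. By clonotypes the count against day 0 was 5 with the prefix as a block, 6 with only these groups in the model or with clonotypes of at least 2 reads, 7 without near copies and 1 with clonotypes found in 1 library. The count of 7 against syngeneic cells fell to 1 with TMM scaling and to between 1 and 7 with 1 library left out. It was 2 without allogeneic JL019-1, 3 without allogeneic JL027-1 or syngeneic JL019-2, and 1 without allogeneic JL027-2, syngeneic JL019-1 or syngeneic JL027. The 3 calls by reads fell to 1 without allogeneic JL019-1 or JL019-2.

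**Figure D4:**
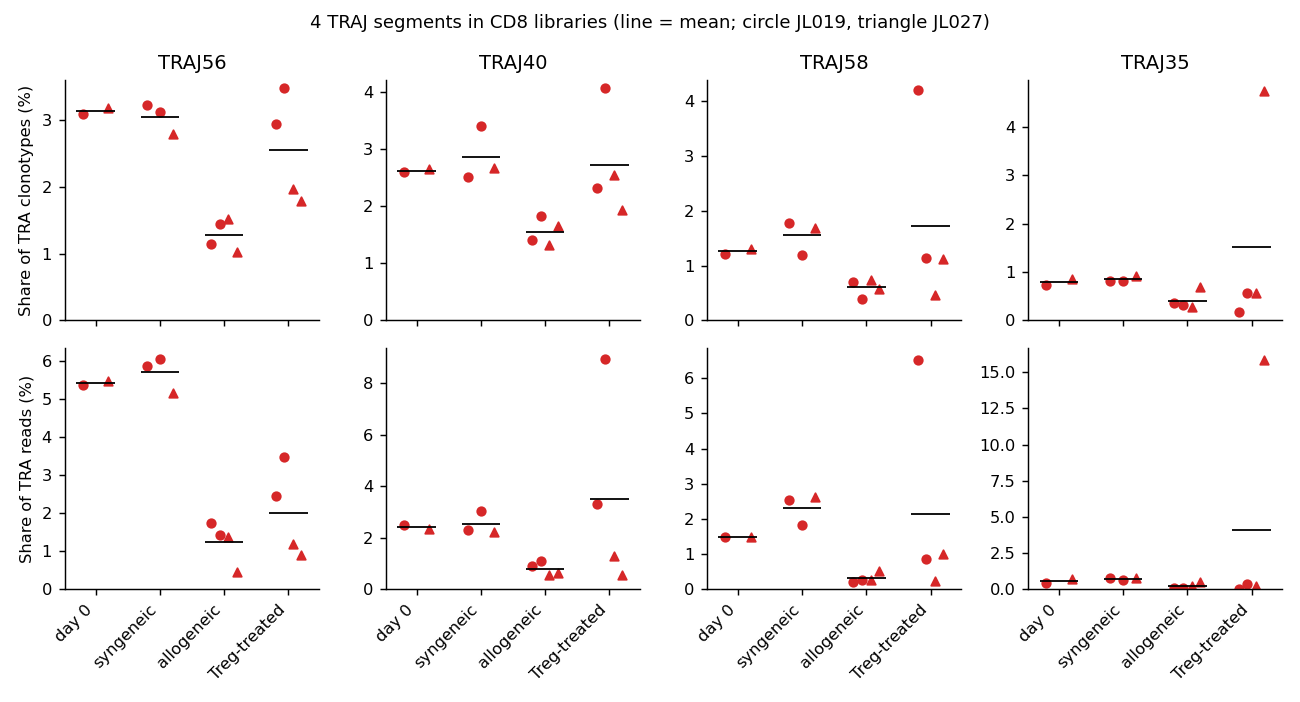
Share of TRA clonotypes (upper) and of TRA reads (lower), in percent, of TRAJ56, TRAJ40, TRAJ58 and TRAJ35 in CD8 libraries by arm; circles are JL019 and triangles JL027 libraries and lines are means. TRAJ56 is between 1.03% and 1.51% of clonotypes in the allogeneic libraries and at least 1.78% in all others, and the Treg-treated means of TRAJ58 and TRAJ35 rest on 1 library each.

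With Treg treatment, 5 members were called in CD8 cells by clonotypes against untreated allogeneic recipients, 9.09% of tested segments, 4 higher and 1 lower (7.27% and 1.82%), and 4 by reads, 7.27%. TRAJ56 was higher, with 2.95%, 3.48%, 1.97% and 1.78% in the treated libraries, each above each allogeneic library (log2 fold change 1.01, SE 0.272, edgeR adjusted p 0.0195). TRAJ56 was not called by reads, where the treated libraries held 2.46%, 3.49%, 1.18% and 0.910% and overlapped the allogeneic ones. TRBJ1-3 was lower, at 3.56%, 3.40%, 3.33% and 2.19% after 4.76%, 4.49%, 4.43% and 3.89%, without overlap (-0.48, SE 0.128, edgeR adjusted p 0.0141). TRAJ40 (54177921 to 54177981) was higher, at 2.32%, 4.07%, 2.54% and 1.93%, again without overlap (0.86, SE 0.277, edgeR adjusted p 0.0418).

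TRAJ35 and TRAJ58 each rested on 1 library. TRAJ35 (54183774 to 54183838) held 0.179%, 0.565% and 0.564% in 3 treated CD8 libraries and 4.75% in JL027-2, against 0.353%, 0.327%, 0.271% and 0.685% in allogeneic ones (1.86, SE 0.596, edgeR adjusted p 0.0418). In the same order these shares rest on 2, 19, 6 and 64 treated clonotypes and on 4, 5, 7 and 12 allogeneic ones. By reads TRAJ35 reached 15.9% in JL027-2, of which 14.4 points were 1 clonotype, and the log2 fold change was 4.19 (SE 1.01, edgeR adjusted p 0.0087). Without JL027-2 the changes of TRAJ35 were 0.21 by clonotypes and -0.02 by reads. TRAJ58 held 4.20% in treated JL019-1 and 1.13%, 0.470% and 1.11% in the other treated libraries (1.45, SE 0.443, edgeR adjusted p 0.0418), and 0.65 remained without JL019-1. By reads TRAJ58 had a log2 fold change of 2.79 (SE 0.777, edgeR adjusted p 0.0159), which was 1.16 without that library.

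TRAJ40 by reads held 3.32%, 8.92%, 1.28% and 0.541% in treated libraries against 0.917%, 1.09%, 0.555% and 0.638% (2.14, SE 0.565, edgeR adjusted p 0.0131), and its change was 1.10 without treated JL019-2. TRAJ11 was lower by reads, at 1.08%, 0.956%, 0.708% and 0.549% after 2.33%, 1.32%, 6.60% and 3.13%, without overlap (-2.02, SE 0.648, edgeR adjusted p 0.0444). With the prefix JL019 or JL027 as a block, 2 members were called by clonotypes. With only the CD8 allogeneic and treated libraries in the model, 0 members were called by clonotypes and 0 by reads. Leaving out 1 library gave 0 (without allogeneic JL019-1) to 8 (without allogeneic JL027-2) calls by clonotypes, with 3 without treated JL027-2. By reads it gave 2 (without treated JL027-2 or allogeneic JL019-1) to 10 (without allogeneic JL027-2), with 8 without treated JL019-2 and 7 without allogeneic JL019-2. The treatment change of no segment was shown to differ between CD8 and CD4 cells: TRAJ35 by reads came nearest (4.62, SE 1.32, edgeR adjusted p 0.0602).

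Shares of clonotypes and of reads came apart after transplantation. As a measure of this, the TRB gap is the part of the J profile, in percentage points, that would have to move to turn the clonotype profile into the read profile, with each library thinned to 8041 reads. At day 0 the gap was 0.811 to 1.55 points over the 6 libraries, and in syngeneic CD8 cells 0.998 to 1.48. It was 2.34, 2.57 and 5.64 points in syngeneic CD4 libraries, 4.18 to 7.93 in allogeneic CD4, 5.98 to 9.62 in allogeneic CD8, 6.60 to 12.6 in Treg-treated CD4, 4.06 to 8.62 in Treg-treated CD8 and 6.18 to 11.2 in Treg of treated recipients. The allogeneic CD8 libraries exceeded the syngeneic ones by 5.78 points without overlap (exact permutation p 0.0571, the smallest possible, adjusted p 0.155).

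Where a segment had many more reads than clonotypes, a single clonotype often held them. Among 1664 pairs of a segment and a library, 12 had a read share at least 5 points above the clonotype share, 0 of them in day 0 or CD8 syngeneic libraries. In 8 of the 12 the largest clonotype held the majority of the segment's reads. TRAJ31 held 24.2% of reads and 7.98% of clonotypes in allogeneic CD8 JL027-1, where 1 clonotype with TRAV8D-2 held 18.1% of reads. TRAJ21 held 20.5% of reads and 6.04% of clonotypes in Treg of treated JL019-1, where 1 clonotype with TRAV7-1 held 16.6%. TRAJ22 held 18.7% of reads and 6.63% of clonotypes in Treg-treated CD4 JL027-1, where 1 clonotype held 14.5%.

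Large clonotypes also came with many small neighbours. Near copies are here clonotypes whose CDR3 has the same length and J segment in the same library and differs by at most 1 letter from that of a clonotype with at least 20 times as many reads. They made up 2.32% to 4.86% of TRA clonotypes at day 0, 23.9% to 42.6% in allogeneic CD8, 28.3% to 52.2% in Treg-treated CD8 and 40.3% to 55.1% in Treg of treated recipients. In syngeneic CD4 cells they made up 9.49% and 6.91% in the JL019 libraries and 28.7% in JL027. Of TRB clonotypes they made up at most 0.418% at day 0, 9.57% to 35.6% in allogeneic CD8 and 22.7% to 46.9% in Treg-treated CD8 libraries. For single segments, 46 of 64 TRAJ35 clonotypes of treated CD8 JL027-2 and 107 of 150 TRAJ49 clonotypes of treated CD8 JL027-1 were near copies. Whether they come from errors in PCR or sequencing was not tested.

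Without near copies the differences between CD8 and CD4 cells kept 25 of their 26 calls among 31. TRBJ2-1 had a log2 fold change of 0.51, TRBJ2-7 of 0.37, TRBJ1-3 of -0.58, TRAJ26 of 0.89 and TRAJ37 of -1.11. TRAJ49 went from 1.24 to 0.87 and was still called. The call that was lost was TRAJ57, which went from -0.55 to -0.20 (edgeR adjusted p 0.0772). Of the 7 allogeneic minus syngeneic calls in CD8 cells, 4 were among the 10 calls without near copies, which were 4 higher and 6 lower: TRAJ56 (-0.83, edgeR adjusted p 0.00353), TRAJ45 (-0.79, edgeR adjusted p 0.00316), TRAJ40 (-0.59, edgeR adjusted p 0.0177) and TRBJ1-1 (0.25, edgeR adjusted p 0.00048). TRAJ58 (-0.65), TRBJ1-4 (-0.18) and TRAJ48 (-0.25) were not, with edgeR adjusted p-values of 0.0874, 0.0680 and 0.375. The 6 further calls were TRAJ11 (0.74), TRAJ22 (0.49) and TRBJ1-6 (0.37) on the higher side and TRAJ38 (-0.91), TRBJ2-3 (-0.24) and TRBJ2-5 (-0.24) on the lower side. Of the 5 calls between treated and allogeneic CD8 cells, TRAJ56 (0.97, edgeR adjusted p 0.0263) and TRBJ1-3 (-0.32, edgeR adjusted p 0.0281) were also called. TRAJ35, TRAJ40 and TRAJ58 were not, with edgeR adjusted p-values of 0.147, 0.230 and 0.316.

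In CD4 cells, 6 members were called between allogeneic and syngeneic libraries without near copies, where the full table gave 0. TRBJ1-1 (0.21, edgeR adjusted p 0.00362), TRBJ1-3 (0.34, edgeR adjusted p 9.21e-05) and TRBJ2-4 (0.21, edgeR adjusted p 0.00524) were higher in allogeneic cells. TRBJ2-1 (-0.18, edgeR adjusted p 0.0273), TRBJ2-5 (-0.22, edgeR adjusted p 0.00124) and TRBJ2-7 (-0.14, edgeR adjusted p 0.0330) were lower. The syngeneic library JL019-2, in which Cd8a exceeded Cd4, had the highest of the 3 syngeneic TRBJ2-1 shares without near copies (11.5%, against 9.88% and 10.5%), and its part in the call was not tested. The 4 allogeneic libraries lay between 8.62% and 9.72%, below all 3. Against day 0, TRBJ1-1 (0.27) and TRBJ1-3 (0.28) were higher and TRBJ2-5 (-0.29) was lower in allogeneic CD4 cells. These calls come from a definition chosen after the data were seen.

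CDR3 length, counted in letters of the deposited amino-acid sequence, differed between J segments. TRBJ1-1 and TRBJ2-7 had the shortest mean TRB CDR3, 13.2 and 13.3 letters, and TRBJ2-2 and TRBJ1-6 the longest, 14.5 letters each. In between lay TRBJ1-2 (13.5), TRBJ1-5 (13.7), TRBJ2-5 (13.9), TRBJ2-4 (14.0), TRBJ1-3 (14.1), TRBJ2-1 (14.2), TRBJ1-4 (14.2) and TRBJ2-3 (14.3). A mean length was taken only from libraries with at least 5 clonotypes of a segment, which left out TRAJ3, TRAJ8, TRAJ10, TRAJ20, TRAJ29 and TRAJ54. Among the other TRAJ segments the ends, chosen after their values were seen, were TRAJ43 (12.2) and TRAJ31 (12.3) on the short side and TRAJ32 (14.9) and TRAJ2 (15.2) on the long side. The order followed the length of the J gene: Pearson's r between gene length and mean CDR3 length was 0.829 (Spearman's rho 0.817) over 41 TRAJ and 0.806 (rho 0.797) over 12 TRBJ segments. These are correlations across segments of the same libraries, and part of the J segment is itself counted in the CDR3. By segment group, TRBJ1 clonotypes had 13.7 letters in CD4 and in CD8 cells and 13.6 in Treg. TRBJ2 clonotypes had 13.9, 13.9 and 13.8 letters.

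**Figure D5:**
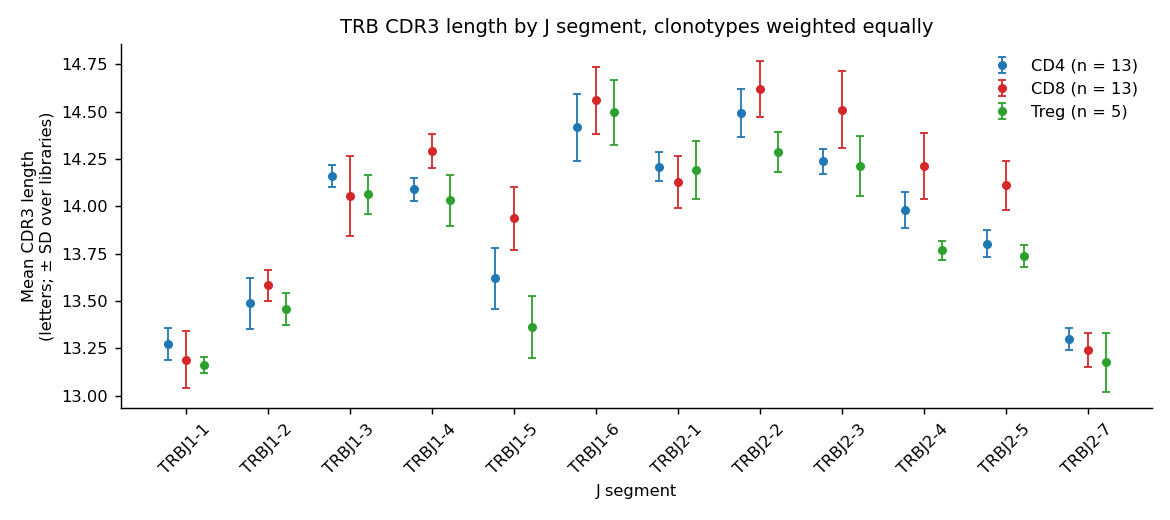
Mean TRB CDR3 length in letters for clonotypes of each TRBJ segment, by cell type (CD4 n = 13, CD8 n = 13, Treg n = 5 libraries); bars are the SD over libraries. TRBJ1-1 and TRBJ2-7 are the shortest, and CD8 lies above CD4 by 0.30 letters in TRBJ2-5 and by 0.31 letters in TRBJ2-3.

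Within segments, CD8 clonotypes were longer than CD4 clonotypes in several cases. Tested with limma on the mean length per library (segments with at least 5 clonotypes in at least 20 libraries), 9 members differed, 16.4% of tested segments, 8 longer and 1 shorter in CD8 (14.5% and 1.82%). TRBJ2-5 had 13.8 ± 0.071 letters in CD4 and 14.1 ± 0.128 in CD8 cells (SD, n = 13 each), a difference of 0.30 (SE 0.042, limma adjusted p 1.25e-05). TRBJ2-3 differed by 0.31 (SE 0.055, limma adjusted p 0.000217), TRBJ1-4 by 0.22 (SE 0.046, limma adjusted p 0.00177), TRBJ1-5 by 0.32 (SE 0.074, limma adjusted p 0.00328) and TRBJ2-4 by 0.24 (SE 0.064, limma adjusted p 0.00783). In the TRA chain TRAJ7 (0.39), TRAJ32 (0.33) and TRAJ42 (0.36) were longer and TRAJ39 (-0.30) was shorter in CD8 cells, with limma adjusted p-values of 0.00328, 0.0476, 0.0481 and 0.0131. TRBJ2-1 and TRBJ2-7, the segments with a higher share in CD8 cells, were not called and had means of 14.13 and 13.24 letters in CD8 and 14.21 and 13.30 in CD4 cells. Without near copies 11 members differed, 8 of the 9 among them, and with libraries weighted by their clonotypes 16 did.

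Over all TRB clonotypes the cell types were close when averaged over arms, but the arms were unequal. The mean TRB CDR3 length was 13.97 and 13.99 letters in CD8 cells at day 0, 13.92 to 13.93 in syngeneic, 13.76 to 13.88 in allogeneic and 13.69 to 13.88 in Treg-treated recipients. CD4 libraries ranged from 13.79 to 13.87 and Treg libraries from 13.68 to 13.75. All CD8 libraries of day 0 and of syngeneic recipients thus lay above all CD4 libraries. Those of allogeneic and Treg-treated recipients overlapped the CD4 range. As a mean over arms CD8 exceeded CD4 by 0.0574 letters (adjusted p 0.155, exact permutation test). The difference was 0.0992 (adjusted p 0.00694, exact permutation test) when each library was given the same set of J shares. Treg lay below CD4 cells (difference -0.0934) without overlap within arms (exact permutation p 0.00952, the smallest possible, adjusted p 0.0714). Allogeneic CD8 cells lay below syngeneic ones (difference -0.112) without overlap (exact permutation p 0.0571, the smallest possible, adjusted p 0.155). For lengths per segment in Treg against CD4 cells, limma called 0 members (0% of tested), with 4 at an unadjusted p under 0.05. With the title number as a block 1 was called, and with libraries weighted by their clonotypes 2.

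The RNA values of the same samples carry the constant genes that follow each J cluster. Trbc2 made up 63.8%, 63.3%, 64.1% and 67.1% of the summed Trbc1 and Trbc2 values in CD4 cells at day 0, in syngeneic, in allogeneic and in Treg-treated recipients. The same means were 65.3%, 65.8%, 67.1% and 67.7% in CD8 cells and 64.4% and 66.7% in Treg at day 0 and in treated recipients. The CD8 sample was higher in 10 of 13 pairs. Across the 31 samples the Trbc2 share and the TRBJ2 share of clonotypes had a Pearson r of 0.502 (Spearman's rho 0.470), and with the TRBJ2 share of reads r was 0.679 (rho 0.729). Within CD4 samples r was 0.137 and 0.412 and within CD8 samples 0.584 and 0.848. Both measures come from the same cDNA.

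Genes of V(D)J recombination, which act on the junctions in developing lymphocytes, were read from the RNA values. Of a list of 15 genes 14 were found, Rag1 being the exception. Tested with limma on log2(value + 1), 2 of 14 differed between CD8 and CD4 cells (18.3% of all 16741 genes), 1 in each direction, with a list median of 0.19 beside -0.01 over all genes. Xrcc5, which encodes the Ku80 end-joining protein, was higher (0.54, SE 0.128, limma adjusted p 0.00334). Dntt, which encodes the terminal transferase that adds untemplated bases to the junctions, was lower as a mean over arms (-1.39, SE 0.277, limma adjusted p 0.000501), and the change was -1.26 without CD4 syngeneic JL019-2. The arms were unequal: the mean Dntt values of CD4 and CD8 cells were 284 and 226 at day 0, 629 and 101 in syngeneic, 1.79 and 0.495 in allogeneic and 3.64 and 0.316 in Treg-treated recipients. The called mean over arms thus includes allogeneic and Treg-treated values that lie near the floor of the log2(value + 1) scale.

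Between allogeneic and syngeneic recipients, 3 of 14 genes differed in CD4 cells (14.6% of all genes; list median -0.20, all genes -0.00) and 2 of 14 in CD8 cells (21.1%; list median 0.01, all genes 0.02). Dntt ranged from 304 to 1120 in syngeneic and from 1.02 to 2.93 in allogeneic CD4 samples, and from 85.7 to 132 in syngeneic and from 0 to 1.18 in allogeneic CD8 samples. The 1120 was that of CD4 JL019-2, the library that stood apart, and the others held 464 and 304. Day 0 samples held 237 to 331 (CD4) and 219 to 234 (CD8). The groups were far apart, at -7.65 (SE 0.518, limma adjusted p 3.50e-11) in CD4 and -6.15 (SE 0.518, limma adjusted p 7.22e-10) in CD8 cells on the log2(value + 1) scale. Dclre1c, which encodes the Artemis nuclease that opens hairpin ends, was higher (0.76 and 0.72, limma adjusted p 0.00966 and 0.0115), and Polm, a polymerase that fills such ends, was higher in CD4 cells (1.53, SE 0.322, limma adjusted p 0.00131). In CD8 cells 4 genes were called without allogeneic JL027-1 and 1 without syngeneic JL019-1, and between CD8 and CD4 cells 4 were called without Treg-treated CD8 JL019-1.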

How the data were processed

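J segment use was computed for 31 libraries of sorted donor T cells. The TCR tables deposited by the authors give 1 raw read count per V segment, J segment and CDR3. Per the labels' protocols, they come from nested PCR on SMARTer cDNA of TRIzol-extracted RNA. The caller is not given in the sources used here. The RNA table holds a normalised expression signal per gene and library made by the authors; the submitters' processing notes name FastQC 0.11.7, kallisto, DESeq2 and the builds GRCm38 and mm10. Libraries were matched to groups by title.

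Entries with a blank J (2288 in TRB, 0.769% of reads) and 11 TRB entries (15 reads) with 1 of 10 TRAJ names were left out of the shares. A library's denominator was the entries of its chain with a J name of that chain, TRAJ18 and TRAJ33 included. Clonotype and read counts per segment were tested with edgeR 4.0.16 (R 4.3.3; glmQLFit, plain library totals, 10 group means, TRA and TRB separately). Lengths and RNA were tested with limma 3.58.1 (RNA: pseudocount 1, mean of at least 1), and DESeq2 1.42.0 was an alternative. Single values were compared by exact two-sided permutation tests within arms, 30 in all, adjusted by Benjamini-Hochberg. The TRB gap is the mean of 20 draws. Fits were tested on simulated data. Intervals and tests cover counting error and spread between libraries, not PCR.

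The texts name all TRBJ segments, the 8 highest and 3 lowest TRAJ by mean share, and up to 4 called segments per direction with the lowest p in each comparison and measure, or the 1 with the lowest p where none was called; others are said to be chosen after their values were seen. The members, lists and tests were chosen with earlier results of these data known.

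The numbers in the titles were checked for pairing: deviations of CD4 and CD8 libraries with the same number had correlations from -0.342 to 0.233, 4 of 13 over 0.1. The day 0 pairs of JL019 and JL027 share the same correlation, so these are not 13 separate values. Libraries of the same recipient need not correlate in this way, so the check cannot show that the numbers do not mark recipients. The main tests do not use the numbers. Fits with the number or the prefix as a block are alternatives, and counts of pairs by arm and number are a description only.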

Additional observations from a re-analysis of the deposited data

Results flagged for a closer look

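Among 152 checks of groups of 4 libraries for 1 library far from the others, 13 stood out, where chance alone gives about 1 in 20.

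In Treg-treated CD8 cells, the TRBJ2 share was 70.7% in JL027-2 and above 72% in the other libraries. TRBJ1-3 in the same library held 2.19% of TRB clonotypes and TRAJ35 held 4.75% of TRA clonotypes. TRBJ2-4 held 6.38% in JL019-1, TRAJ21 6.75% in JL019-2 and TRAJ15 7.71% in JL027-1. In allogeneic CD8 cells, JL027-2 held 10.7% TRAJ23 and 3.03% TRAJ37, both the highest of its group. In Treg-treated CD4 cells, JL019-1 held 2.28% TRAJ48 and 1.69% TRAJ58, and JL019-2 held 3.47% TRAJ49. The TRB gap between read and clonotype shares was 12.6 points in Treg-treated CD4 JL027-2 and 9.62 points in allogeneic CD8 JL019-1, each the highest of its group.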

How the results depend on the processing

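Of 317 values recomputed under other settings for the counts and single values of the report, 258 kept their direction and side of the threshold (for counts, stayed within 1.5 times), as did 456 of 494 with 1 library left out. For single called segments and genes, 318 of 383 values did so and 65 missed the threshold, with none turned under these settings. With 1 library left out, 692 of 773 did so, 80 missed the threshold and 1 turned (TRAJ35 by reads, given last). Leaving out near copies, keeping clonotypes found in 1 library and limma on log2 shares were chosen after seeing the data. The cause of the changes below was not tested. The main tests do not use the title numbers as pairs; the blocked fits below do.

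Counts of called members moved as follows. With the 10 largest clonotypes of each library left out, reads gave 21 for CD8 minus CD4 (9 in the report), 1 for CD4 treated minus allogeneic (0), and 0 for CD8 treated minus allogeneic (4) and CD8 allogeneic minus day 0 (1). With only the groups compared in the model, clonotypes gave 11 for CD8 allogeneic minus syngeneic (7), 0 for CD8 treated minus allogeneic (5), 1 for CD4 allogeneic minus day 0 (0) and 6 for CD8 allogeneic minus day 0 (3). Reads gave 1 for CD4 allogeneic minus syngeneic (0), 5 for the same in CD8 (3), and 0 for CD8 treated minus allogeneic and CD8 allogeneic minus day 0. TMM gave 1 for CD8 allogeneic minus syngeneic by clonotypes and 1 by reads, 1 for CD4 treated minus allogeneic by clonotypes and 0 for CD8 allogeneic minus day 0 by reads. DESeq2 gave 11 by clonotypes and 7 by reads for CD8 treated minus allogeneic, 6 by reads for CD8 allogeneic minus syngeneic and 0 by reads for CD8 allogeneic minus day 0. Limma on log2 shares gave 4 by clonotypes for CD8 allogeneic minus syngeneic, 0 by reads for CD8 treated minus allogeneic and 2 by reads for CD8 allogeneic minus day 0. Without the filter reads gave 8 and 2 for those last 2 comparisons. Clonotypes of at least 2 reads gave 4 for CD4 allogeneic minus syngeneic and 6 for CD8 allogeneic minus day 0. Clonotypes found in 1 library gave 1 for each of the 2 CD8 comparisons of allogeneic cells with syngeneic and day 0 cells. Without near copies the counts were 6 for CD4 allogeneic minus syngeneic, 2 for CD8 treated minus allogeneic, 3 for CD4 allogeneic minus day 0 and 7 for CD8 allogeneic minus day 0.

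With the replicate block (label prefix), clonotypes gave 2 for CD8 treated minus allogeneic and 5 for CD8 allogeneic minus day 0. With the replicate block on the recipient number, lengths of Treg minus CD4 gave 1 and the TRB gap of Treg minus CD4 was -0.111 (0.0691 without the block). The block changed no other count by more than 1.5 times. Weighting lengths by clonotypes gave 16 for CD8 minus CD4 (9) and 2 for Treg minus CD4 (0).

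Single differences that turned direction or crossed the threshold were these. The TRBJ2 share of Treg minus CD4 was -0.293 with clonotypes of at least 2 reads, and that of CD8 allogeneic minus syngeneic 0.602 by reads and 0.253 with clonotypes found in 1 library. The share above TRAJ30 was -4.64 for CD8 minus CD4 by reads and 0.0736 for CD4 allogeneic minus syngeneic with at least 2 reads. Mean TRB length of CD8 minus CD4 was 0.0992 with one set of J shares. With at least 2 reads and without near copies it was 0.0217 and 0.0306 for CD4 allogeneic minus syngeneic and -0.0152 and -0.0188 for CD4 treated minus allogeneic, and without near copies 0.00666 for CD8 treated minus allogeneic. Mean TRA length of CD8 minus CD4 (-0.0177) was -0.0503 with at least 2 reads, -0.129 by reads, 0.0175 with one set of J shares, 0.0104 with clonotypes found in 1 library and 0.0116 without near copies. Without near copies it was 0.0184 for CD8 allogeneic minus syngeneic and -0.00420 for CD8 treated minus allogeneic. The TRB gap was -0.00907 for Treg minus CD4 without thinning and 1.25 for CD8 treated minus allogeneic with clonotypes found in 1 library.

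With 1 library left out, counts ran from 1 to 7 (clonotypes) and 1 to 3 (reads) for CD8 allogeneic minus syngeneic, 0 to 8 and 2 to 10 for CD8 treated minus allogeneic, 0 to 2 by reads for CD8 allogeneic minus day 0, 0 to 1 for lengths of Treg minus CD4, and 2 to 4 and 1 to 4 recombination genes for CD8 minus CD4 and CD8 allogeneic minus syngeneic. The TRBJ2 share of CD8 allogeneic minus syngeneic ran from -0.491 to 0.159, the share above TRAJ30 of CD4 allogeneic minus syngeneic from -0.819 to 0.496, and the TRB gap from -0.703 to 0.766 for Treg minus CD4 and from -1.35 to 0.234 for CD8 treated minus allogeneic. TRB length ran from -0.0177 to 0.00657 for CD4 allogeneic minus syngeneic and from -0.0407 to 0.0212 for CD8 treated minus allogeneic, and TRA length from -0.00873 to 0.0353 for CD4 treated minus allogeneic. TRAJ35 by reads in CD8 treated minus allogeneic ran from -0.0194 to 5.03.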
